A study of Mus musculus with 24 samples.

Results

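The 6 arrays described here are those of hPER1 S714G mutant mice at ZT1, 3 of liver and 3 of white adipose tissue. They were chosen by their labels alone, for tissue, genotype and time, and are 6 of the 24 arrays of the series. The mutant mice carry a human PER1 with the variant S714G. The control mice of the series carry human PER1 with S714, so a human PER1 is common to both genotypes. Every mouse was male, 2 months old and of C57BL/6 background, and had spent 10 days in light-dark cycles. ZT1 is 1 h and ZT13 is 13 h after lights on. The labels do not give the promoter or copy number of the human gene, the fat depot, or which samples came from the same animal. They speak of independent repeats only. The p-values below therefore measure the spread between samples within groups, pooled over the 8 groups of all 24 arrays.

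Each RNA was labelled with Cy3 and hybridised to a 1-colour Agilent mouse array, which reads each transcript as the brightness of a 60-base probe. Values are log2 of the processed signal minus the 75th percentile of that array, called the level below. A level of 0 is thus the 75th percentile of the array's own probes, and a difference of 1 is 2-fold. A difference is always liver minus adipose tissue, so negative values are higher in adipose tissue. Levels of different genes are not compared, since each probe has its own brightness.

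Liver and fat divide the handling of nutrients between them. Hepatocytes make the blood's plasma proteins, lipoproteins, bile acids, urea and new glucose. Adipocytes store triglyceride in droplets, release fatty acids from them and secrete hormones such as leptin and adiponectin. Both tissues run the circadian clock, in which PER proteins repress the activators CLOCK and BMAL1 (gene Arntl). Phosphorylation of PER proteins sets their stability and activity. The comparison asks which genes separate the tissues in the mutant 1 h after lights on.

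The tissues differed for most genes. Of 21012 genes tested, 12249 (58.3%) had an adjusted p under 0.05 in limma (Benjamini-Hochberg), 6097 of them (29%) higher in liver and 6152 (29.3%) higher in adipose tissue. The values of the tissues did not overlap for 12233 genes (58.2%). The median difference over all genes tested was 0.017. Against a floor of 2-fold, limma's treat test called 4911 genes (23.4%), 2189 higher in liver and 2722 higher in adipose tissue. These shares are the background against which each gene group below is read. The split between directions depends on the scaling. With the 75th percentile taken over probes detected on every array, 4552 genes were higher in liver and 7748 in adipose tissue, and the median difference was -0.254.

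The liver arrays were more alike than the adipose arrays. Across genes, correlations between arrays were 0.977 to 0.988 within liver, 0.947 to 0.964 within adipose tissue and 0.849 to 0.896 between tissues. Between 48.1% and 64.2% of spots on these 6 arrays were well above background, and no spot was saturated. The liver arrays and adipose replicate 3 lay on slide 2, while adipose replicates 1 and 2 lay on slide 1. Differences of the 3 liver arrays from adipose replicate 3 alone are therefore given as within-slide values where they matter. The titles of adipose replicates 2 and 3 carry another prefix than the other 4 arrays, the meaning of which is not stated. Adipose replicate 2 stood apart in a further way. Its hepatocyte transcripts were far below those of the other adipose arrays, as described next, and results on liver genes are also given for that array alone.

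Cell type markers were read first, as a check of the labelled tissues. The mean level of 12 hepatocyte markers was 7.02, 6.93 and 6.83 on the liver arrays and 2.71, -2.07 and 1.86 on adipose replicates 1, 2 and 3. The mean level of 12 adipocyte markers was 5.22, 5.09 and 5.0 on the adipose arrays and -1.79, -1.96 and -1.47 in liver. The labels of both tissues thus hold by their own markers, and the tissues do not overlap on either list. Of the hepatocyte markers 11 of 12 were called higher in liver, and of the adipocyte markers 12 of 12 were called higher in adipose tissue. Plin1, which coats the adipocyte's lipid droplet, was not well above background on any liver array and was at least 1213-fold higher in adipose tissue. Such a bound sets the bright tissue's mean against the lowest signal that counts as well above background on each dim array, or the probe's own signal where that is higher. Where only some arrays of a tissue were well above background, the fitted difference is less certain. In adipose tissue 2 of 3 arrays were so for Clec4g, Fabp1, Fga, Fgb, Fgg, Gc, Hsd17b13, Itih1, Mat1a and Mttp, and 1 of 3 for Lrat, Nat8, Nr1i2, Slc25a15 and Spp1. In liver 2 of 3 arrays were so for Cidec, Cpt1b, Ebf1, Hk2, Hoxa7, Hoxb3, Lox, Mogat2, Nnat and Pck2, and 1 of 3 for Cox8b, Lrrn4, Mfap5, Plin4 and Trarg1.

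Hepatocyte transcripts were nevertheless present on the adipose arrays, at levels that varied from array to array. Alb (albumin; probe at chr5:90901598-90901657, mm9) was 7.56, 7.51 and 7.73 in liver and 4.81, -1.66 and 4.31 on adipose replicates 1 to 3. Over the 12 hepatocyte markers, the median signal of an adipose array as a percentage of the liver mean was 4.17% on replicate 1, 0.0921% on replicate 2 and 3.20% on replicate 3. Replicate 2 was thus the lowest for this list. The mean hepatocyte marker level was 0.58, 1.88 and 0.51 on the adipose mutant arrays at ZT13. It was 2.85, 5.22 and 2.96 on adipose control arrays at ZT1 and 3.07, 1.09 and 2.94 on those at ZT13. The other 11 adipose arrays of the series therefore all lay above replicate 2, and control ZT1 replicate 2 was the highest. In bulk tissue, fewer cells of a type and less RNA per cell cannot be told apart, and how these transcripts came to be on the adipose arrays was not tested.

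**Figure D1:**
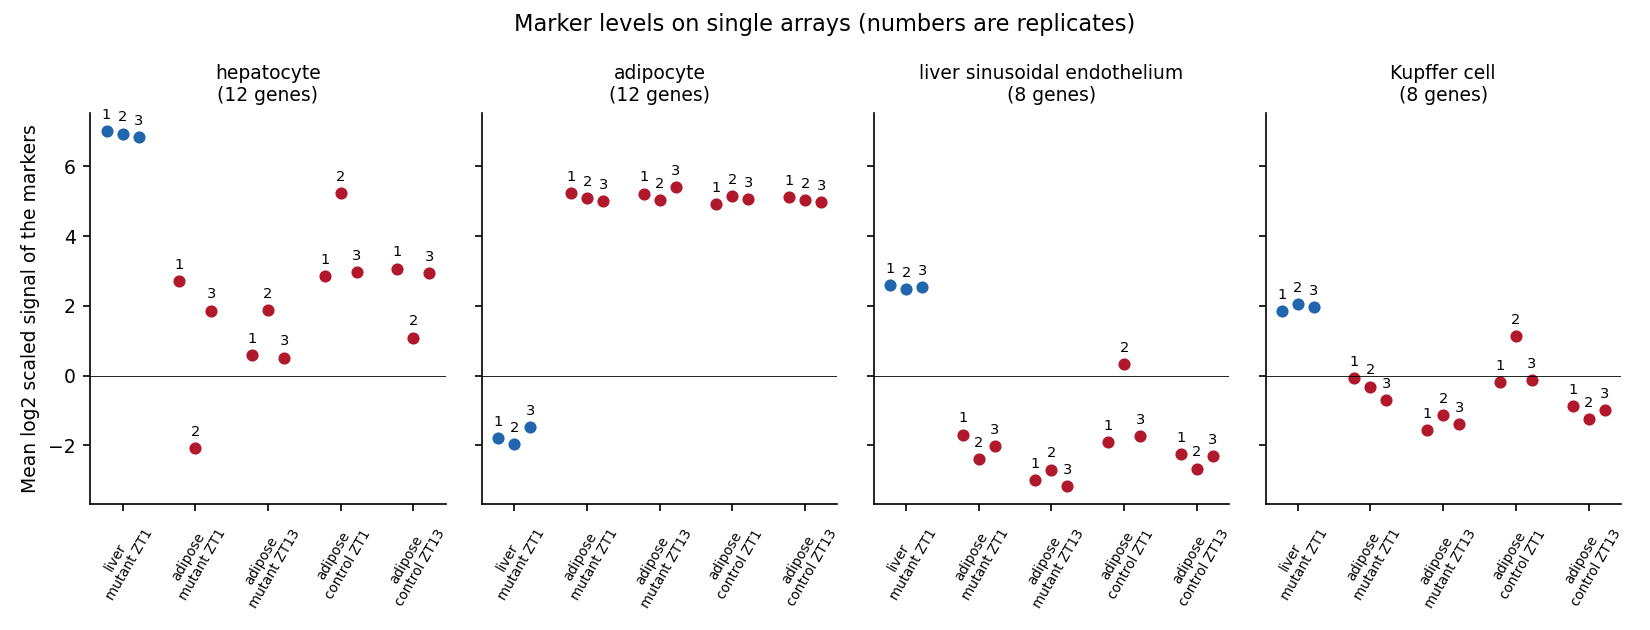
Mean log2 scaled signal of the markers of 4 liver and fat cell types on single arrays, for liver mutant ZT1 (blue) and the 4 adipose groups (red), with the replicate number over each point. Adipocyte markers are level across the adipose arrays, whereas hepatocyte markers fall to -2.07 on adipose mutant ZT1 replicate 2.

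The genes low on adipose replicate 2 were mostly genes called higher in liver. Adipose replicate 2 was at least 2 log2 units below both other adipose arrays for 210 of 20986 genes with a value on each array. Of these, 199 were among 6089 genes called higher in liver, 3 among 6145 called higher in adipose tissue and 8 among the rest. The calls include replicate 2 itself, and a low value there moves a gene toward the liver side. The same count was 162 genes where replicate 1 was the lowest and 164 where replicate 3 was. Called higher in liver, higher in adipose tissue and not called were 51, 9 and 102 of these for replicate 1. For replicate 3 they were 36, 18 and 110. Among 30 plasma protein genes, replicate 2 was the low array for 18, and replicates 1 and 3 for 0. Among 12 adipocyte markers it was the low array for 0. Consequently the size of a liver gene's difference depends on the adipose array it is set against. Alb differed by 5.11 ± 1.05 (SE; limma adjusted p = 0.000329), by 3.29 against replicate 3 and by 9.26 against replicate 2.

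**Figure D2:**
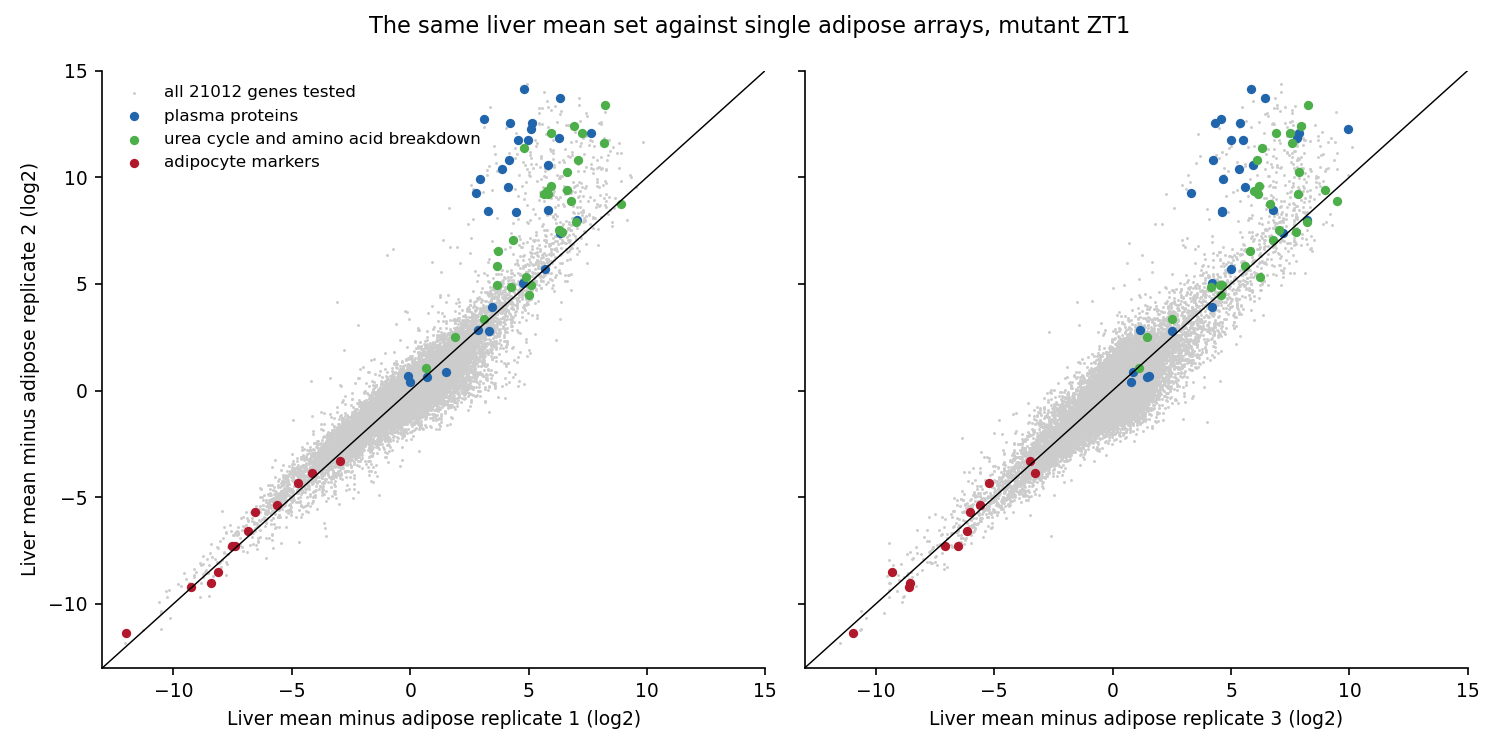
Each point is a gene, placed by the liver mean minus adipose replicate 1 (left) or replicate 3 (right) on the x axis and minus adipose replicate 2 on the y axis, in log2 units, with the line of equal values. Plasma protein genes (blue) and urea cycle and amino acid genes (green) lie mostly above the line, and adipocyte markers (red) lie close to it.

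Promoter sequences are shown for genes called higher in liver that hold the core letters of the TATA box, the stretch at which the general transcription machinery positions the start in many tissue-restricted genes. The stretch TATAAA is printed in capitals in 60-base windows from RefSeq promoters (GRCm38.p6, in the direction of the gene). The genes are Cyp8b1, which makes cholic acid, the bile acid sensor's target Nr0b2, the drug-metabolising Cyp1a2, apolipoprotein A5 (Apoa5), and the secreted proteins angiotensinogen (Agt) and retinol binding protein (Rbp4), which both tissues express.
Cyp8b1, chr9:121916306-121916365, minus strand: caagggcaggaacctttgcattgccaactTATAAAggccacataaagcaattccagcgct
Nr0b2, chr4:133553316-133553375, plus strand: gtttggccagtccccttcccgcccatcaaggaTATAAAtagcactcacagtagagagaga
Cyp1a2, chr9:57683656-57683715, minus strand: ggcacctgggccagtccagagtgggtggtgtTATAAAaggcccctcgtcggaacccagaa
Apoa5, chr9:46268548-46268607, plus strand: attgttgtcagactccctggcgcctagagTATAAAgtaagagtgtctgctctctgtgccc
Agt, chr8:124569707-124569766, minus strand: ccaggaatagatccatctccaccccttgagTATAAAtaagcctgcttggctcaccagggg
Rbp4, chr19:38124812-38124871, minus strand: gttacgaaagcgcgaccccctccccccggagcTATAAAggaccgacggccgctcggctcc

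The stretch lay 31 bases before an annotated start in Cyp8b1, 28 in Nr0b2, 29 in Cyp1a2, 31 in Apoa5, 30 in Agt and 28 in Rbp4. Promoters of 300 bases (250 before the start and 50 after) were searched for TATAAA on either strand. It occurred in 13.6% of 32851 RefSeq promoters, or 15.7% of 27025 genes. Among the 11638 genes tested here that have a promoter entry, the share was 10.4%. TATAAA occurred in 7 of 14 bile acid genes with an entry, in 10 of 22 genes of xenobiotic metabolism, in 5 of 13 apolipoprotein and lipoprotein genes and in 5 of 22 plasma protein genes. In other liver lists it occurred in 7 of 19 liver transcription factors and in 4 of 16 genes of gluconeogenesis and liver glucose handling. The counts were 3 of 20 for urea cycle and amino acid breakdown and 2 of 18 for fatty acid oxidation. It also occurred in 4 of 11 reference genes, so that it was not limited to liver lists. Among adipokine genes it occurred in 4 of 14. These included Agt and Rbp4, both called higher in liver, and Tnf, which did not enter the test. It was found in 0 of 18 cholesterol synthesis genes and in 0 of 19 clock genes. A match is a description of letters, not of a bound site. Of the genes printed, Cyp8b1 was 4.85, 5.03 and 5.16 in liver and -3.18, -6.83 and -4.23 in adipose tissue, where 1 of 3 arrays was well above background. Cyp1a2 was 6.65, 6.36 and 6.27 in liver and -0.70, -6.96 and -0.53 in adipose tissue, with replicate 2 low and not well above background. Apoa5 differed by 6.10 ± 0.589 (SE; limma adjusted p = 2.71e-08), against 1.45 for Agt and 1.07 for Rbp4.

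Plasma proteins made by the liver were higher in liver as a group. Of 30 genes, 28 were called higher in liver and 0 higher in adipose tissue, with a median difference of 6.48, which was 4.84 against adipose replicate 3 and 9.41 against replicate 2. The 3 liver arrays and 3 adipose arrays of F9, coagulation factor IX, were 4.51, 5.01 and 4.78 against -2.30, -3.24 and -3.43, a difference of 7.76 ± 0.650 (SE; limma adjusted p = 3.9e-09). F9 is therefore a liver gene whose adipose arrays were close together. The corticosteroid carrier Serpina6 differed by 6.97, factor X (F10) by 5.47 and vitronectin (Vtn) by 4.65. The probes of F10 disagreed, and its other probe was not called at 0.32 (limma adjusted p = 0.218 with every probe on its own). The members not called were the acute phase protein haptoglobin, Hp, at 0.37 ± 0.217 (SE; limma adjusted p = 0.146), and complement C3 at 0.70 ± 0.309 (SE; limma adjusted p = 0.0599), which adipose tissue also expresses. Levels of Hp were 5.76, 5.28 and 5.40 in liver and 5.50, 5.11 and 4.72 in adipose tissue, which overlap. The genes Gc and Fgg (fibrinogen gamma chain) show the spread between adipose arrays and were picked after their values were seen. Gc was 6.87, 6.56 and 6.54 in liver and 1.86, -7.46 and 0.80 in adipose tissue. Fgg was 5.92, 5.55 and 5.30 in liver and 2.46, -7.12 and 1.03 in adipose tissue, where replicate 2 was not well above background.

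Lipoprotein genes were mostly higher in liver. Of 22 genes of apolipoproteins and lipoprotein assembly, 18 were called higher in liver and 1 in adipose tissue, with a median difference of 6.31. Mttp, which loads triglyceride onto apolipoprotein B, differed by 7.05 ± 0.531 (SE; limma adjusted p = 8.86e-10). Lcat, which esterifies cholesterol on HDL, differed by 8.19, and Tm6sf2, a factor of VLDL secretion, by 6.34. The exception was Lpl, the lipase that frees fatty acids for uptake at the vessel wall. It was 2.50, 2.58 and 2.72 in liver and 6.47, 7.22 and 7.09 in adipose tissue, 4.33 lower in liver (SE 0.238; limma adjusted p = 1.13e-11). Hepatic lipase, Lipc, ran the other way at 9.34 higher in liver, with 1 of 3 adipose arrays well above background. Apoe was not called, at 0.65 ± 0.332 (SE; limma adjusted p = 0.101).

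Nitrogen and amino acid handling was a liver trait without exception in the list. Of 29 genes of the urea cycle and amino acid breakdown, 29 were called higher in liver, with a median difference of 7.20. Cps1, the entry enzyme of the urea cycle, was 6.14, 5.99 and 5.90 in liver and -0.62, -4.25 and -1.87 in adipose tissue, a difference of 8.26 ± 0.903 (SE; limma adjusted p = 1.56e-07). Asl, a later step of the same cycle, differed by 4.42, and Slc25a15, its mitochondrial ornithine carrier, by 4.86. Among enzymes of single amino acids, Prodh2 (hydroxyproline) differed by 6.95, Kmo (tryptophan) by 5.48, Cth (cysteine) by 4.70 and Fah (tyrosine) by 2.98. Cth was 4.90, 5.09 and 4.95 in liver and -0.04, 0.49 and 0.40 in adipose tissue, so that replicate 2 was not low for this gene.

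Glucose handling separated into a liver set and a muscle and fat set. Of 20 genes of gluconeogenesis and liver glucose handling, 19 were called higher in liver, and of 10 genes of the muscle and fat type, 8 were called higher in adipose tissue and 0 higher in liver. The medians were 3.75 and -3.35. Glucose enters hepatocytes through Slc2a2 (GLUT2) and adipocytes through the insulin-responsive Slc2a4 (GLUT4). Slc2a2 was not well above background on any adipose array and was at least 252-fold higher in liver, while Slc2a4 was -1.60, -1.88 and -0.88 in liver and 4.16, 3.92 and 4.16 in adipose tissue. The glucokinase regulator Gckr was at least 267-fold and the liver pyruvate kinase Pklr at least 115-fold higher in liver. G6pc, the last step of glucose release, differed by 6.03, the glucagon receptor Gcgr by 5.90, and triokinase, Tkfc, by 4.88. In the other direction hexokinase 2 (Hk2) differed by -5.97, muscle-type glycogen synthase (Gys1) by -5.11 ± 0.172 (SE; limma adjusted p = 1.14e-14), Pfkfb3 by -4.24, Ldhb by -3.62 and Pkm by -3.07. Pck1, which makes phosphoenolpyruvate for glucose in liver and for glycerol in fat, was 5.84, 6.15 and 6.07 in liver and 5.56, 5.69 and 5.26 in adipose tissue. Its difference of 0.52 ± 0.216 (SE; limma adjusted p = 0.0459) turned to -0.066 under quantile normalization.

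Bile acid and drug metabolism were liver functions here too. Of 18 bile acid genes, 17 were called higher in liver, with a median difference of 6.71. Cyp7a1, the rate-limiting enzyme of bile acid synthesis, was 2.68, 2.94 and 3.38 in liver, was not well above background on any adipose array and was at least 184-fold higher in liver. Akr1d1 was at least 99.0-fold higher in liver. The sterol exporter half-transporters Abcg5 and Abcg8 differed by 6.75 and by at least 35.6-fold. Cyp7b1 of the alternative pathway differed by 7.46, the feedback repressor Nr0b2 (SHP) by 6.37 and Cyp27a1, also used outside liver, by 4.26. The bile acid importer Slc10a1 was the exception, and its probes disagreed. The brighter probe was 7.42, 7.38 and 7.32 in liver and 7.19, 6.95 and 6.69 in adipose tissue. The other probe was 6.19, 6.13 and 6.16 in liver and -2.07, -7.03 and -2.35 in adipose tissue, 9.98 ± 1.21 higher in liver (SE; limma adjusted p = 9.09e-07 with every probe on its own). Of 23 genes of xenobiotic metabolism, 20 were called higher in liver, with a median of 5.24. The glucuronosyltransferase Ugt2b1 differed by 9.28, with 2 of 3 adipose arrays well above background. The aldehyde oxidase Aox3 differed by 7.0, the xenobiotic receptor PXR (Nr1i2) by 6.92, Nat8 by 6.43, Fmo5 by 2.75 and the epoxide hydrolase Ephx1 by 2.73.

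**Figure D3:**
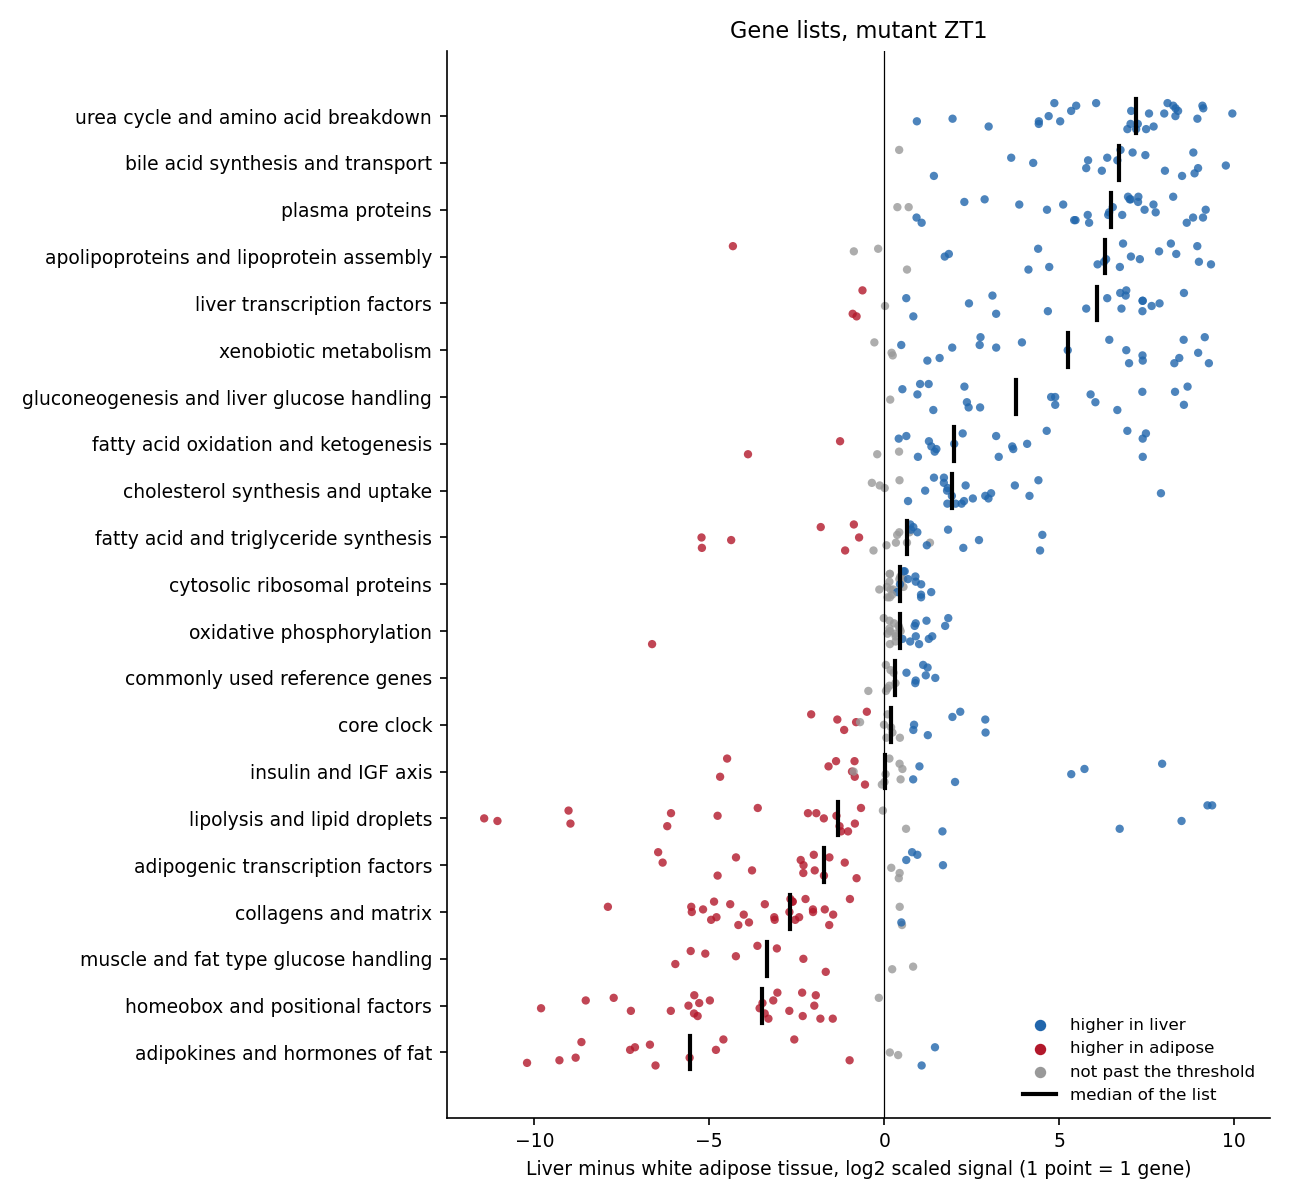
Liver minus adipose difference (log2 scaled signal) of each tested gene in the functional lists, coloured by its call, with the median of each list as a black bar. Medians run from 7.20 for urea cycle and amino acid breakdown to -5.56 for adipokines, while insulin and IGF genes, the clock and the housekeeping lists lie around 0.

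Fatty acid oxidation leaned to the liver, with ketone use on the other side. Of 23 genes tested of this list, 19 were called higher in liver and 2 in adipose tissue, with a median difference of 2.00. The carnitine shuttle enzyme Cpt1a differed by 2.00 ± 0.166 (SE; limma adjusted p = 3.32e-09), the peroxisomal enzyme Ehhadh by 3.69 and the thioesterase Acot1 by 4.64. The receptor Ppara, which drives these genes, differed by 3.20. Oxct1, the enzyme that lets a tissue burn ketone bodies, was -0.24, -0.28 and -0.26 in liver and 3.67, 3.56 and 3.67 in adipose tissue, a difference of -3.89 ± 0.162 (SE; limma adjusted p = 2.14e-13).

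Lipid synthesis was shared between the tissues, gene by gene. Of 25 genes of fatty acid and triglyceride synthesis, 10 were called higher in liver and 7 in adipose tissue, with a median of 0.65. Under quantile normalization 5 were higher in liver and 9 in adipose tissue, with a median of 0.17. The desaturases of polyunsaturated fatty acids, Fads1 and Fads2, differed by 2.71 and 4.45, and lipin 2 (Lpin2) by 4.52. On the adipose side were the desaturase Scd2 at -4.38 and the monoacylglycerol acyltransferases Mogat1 at -5.22 and Mogat2 at -5.21. Genes of the fatty acid pathway itself varied among the adipose arrays. Fasn, fatty acid synthase, was 3.52, 3.43 and 3.82 in liver and 1.98, 2.24 and 4.39 in adipose tissue, with only adipose replicate 3 above the liver arrays. Its difference was 0.72 ± 0.515 (SE; limma adjusted p = 0.238) and -0.80 against replicate 3 alone. Acly, which feeds it with acetyl-CoA, was 3.15, 2.97 and 2.77 in liver and 1.40, 2.35 and 3.19 in adipose tissue. Fasn and Acly were picked after their values were seen, and whether the slide or the sample set replicate 3 apart cannot be told apart.

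Cholesterol synthesis was higher in liver in the mutant at ZT1. Of 25 genes, 21 were called higher in liver and 0 in adipose tissue, with a median of 1.93. Enzymes of the pathway were higher in liver by 4.15 for the sterol reductase Tm7sf2, 2.89 for Dhcr7, which makes cholesterol in the last step, 2.53 for Fdps, which makes farnesyl diphosphate, and 1.17 for the synthase Hmgcs1, whose sign turned under quantile normalization with the slide as a block. Soat2, the liver and gut enzyme of cholesteryl ester formation, differed by 7.91, with 1 of 3 adipose arrays well above background. The members not called were the kinases Pmvk at 0.44 and Mvk at 0.01, the regulator Srebf2 at -0.13 and Soat1 at -0.35. That holds for their brightest probes. With every probe on its own, the other Pmvk and Mvk probes were called higher in liver. They differed by 1.001 and 1.196 (limma adjusted p = 0.00104 and 0.00173). The other Srebf2 probe was called higher in adipose tissue at -0.997 (limma adjusted p = 0.000725). The probes of Fdft1 were called in opposite directions, the brighter at 1.82 and the other at -0.81.

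Lipid droplet and lipolysis genes were higher in adipose tissue as a group. Of 24 genes, 17 were called higher in adipose tissue and 5 in liver, with a median of -1.32. Plin1 was 6.39, 5.77 and 5.36 on the adipose arrays, and Plin4, a further droplet protein, was 6.31, 6.25 and 5.73 there and -5.46, -5.30 and -4.11 in liver. Cidec, which fuses droplets, differed by -9.02 ± 0.345 (SE; limma adjusted p = 6.73e-14), hormone-sensitive lipase (Lipe) by -4.76 and the beta-3 adrenoceptor Adrb3, which starts lipolysis, by -6.09. The glycerol channel Aqp7 was at least 182-fold higher in adipose tissue. The 5 liver-side members included the hepatic glycerol channel Aqp9, at least 263-fold higher in liver, and Cideb, at 6.73. The other 3, Hsd17b13, Fitm1 and Plin5, differed by 9.24, by at least 147-fold and by 1.66, and are named outside the rule.

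Genes for hormones of fat followed the tissue. Of 17 adipokine genes tested, 13 were called higher in adipose tissue and 2 in liver, with a median of -5.56. Adiponectin (Adipoq) was 0.65, 0.62 and 0.65 in liver and 7.51, 7.22 and 6.80 in adipose tissue, a difference of -6.54 ± 0.214 (SE; limma adjusted p = 7.69e-15). Leptin (Lep) was 1.78, 2.20 and 3.0 on the adipose arrays, was not well above background on any liver array and was at least 106-fold higher in adipose tissue. Resistin (Retn) differed by -7.12, the natriuretic peptide clearance receptor Npr3 by -6.70, neuronatin (Nnat) by -10.21 and Trarg1, a partner of GLUT4 traffic, by -9.28. The 2 liver-side genes were angiotensinogen (Agt) at 1.45 and retinol binding protein (Rbp4) at 1.07, and the cytokine genes Il6 and Tnf did not enter the test.

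Transcription factors divided along the same line. Of 22 factors listed for liver, 18 were called higher in liver and 3 in adipose tissue, with a median of 6.07. Hnf4a was 5.10, 4.86 and 4.96 in liver and -1.08, -4.37 and -2.55 in adipose tissue, where replicate 2 was again the lowest. Foxa2, a pioneer factor of liver genes, differed by 7.38 with 1 of 3 adipose arrays well above background, and Creb3l3 by 6.78. Nr5a2 (LRH-1) was 3.30, 3.42 and 3.32 in liver and -1.35, -1.39 and -1.25 in adipose tissue, a difference of 4.68 ± 0.198 (SE; limma adjusted p = 2.72e-13), and here replicate 2 did not stand apart. Of 21 adipogenic factors tested, 14 were called higher in adipose tissue and 4 in liver, with a median of -1.72. Pparg, the master regulator of fat cells, was 0.85, 1.35 and 1.88 in liver and 5.52, 5.24 and 4.66 in adipose tissue. Ebf1 differed by -6.46, Klf4 by -4.76, and Stat5a and Gata2 by -2.31 each, while Ebf2 was at least 27.6-fold higher in adipose tissue.

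Homeobox genes, which mark position along the body axis, were mostly higher in adipose tissue where they were tested. Of 25 tested genes of 32 listed, 24 were called higher in adipose tissue and 0 in liver, with a median of -3.48. For 11 of the 25 the difference is a bound, against 1097 of 21012 over all genes tested. These 11 were well above background on no liver array and entered the test through adipose tissue only, so the filter favoured their direction. Hoxc6 was 2.31, 2.16 and 1.84 in adipose tissue and was at least 90.9-fold higher there, Hoxc4 at least 310-fold, Meox2 at least 53.5-fold and Hoxb6 at least 28.0-fold. Hoxa7 differed by -7.24 ± 0.272 (SE; limma adjusted p = 5.12e-14) and Hoxb3 by -3.48. Hoxc10, not called, was -1.70, -1.51 and -3.03 in liver and -1.54, -1.92 and -2.31 in adipose tissue. In 7 of the 32 genes, among them Hoxa9, Hoxa10 and Tbx15, neither tissue had a probe well above background on its 3 arrays.

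Matrix genes were higher in adipose tissue, and insulin and IGF genes were not a group of one direction. Of 30 genes of collagens and matrix, 27 were called higher in adipose tissue and 1 in liver, with a median of -2.70. The microfibril gene Mfap5 differed by -7.90, fibrillin (Fbn1) by -5.50, Col6a2 by -5.52, Col5a1 by -3.87 and the crosslinking enzyme Lox by -3.41, while Col5a2 was at least 9.96-fold higher in adipose tissue. The liver-side member was fibronectin, Fn1, at 0.49. Of 22 insulin and IGF genes tested, 6 were called higher in liver and 8 in adipose tissue, with a median of 0.02. The binding proteins of IGF took opposite sides. Igfbp1 differed by 7.94 with 2 of 3 adipose arrays well above background, Igfbp2 by 5.34, Igfals by 2.02 and Igfbp4 by 1.01. Igfbp5 differed by -4.69 and Igfbp6 by -4.49.

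Pairs of related proteins show the division at the level of single steps. In 20 pairs, 1 gene was listed as the liver type and the other as the muscle, fat or general type, and both were tested in 19. In 13 pairs the liver type was called higher in liver and its partner higher in adipose tissue. Among them were the glycerol channels Aqp9 and Aqp7, the droplet proteins Cideb and Cidec, the glucose transporters and the lipases Lipc and Lpl. The receptors Ppara and Pparg differed by 3.20 and -3.78. The pairs Gys2 and Gys1 (glycogen synthase, 4.77 and -5.11), Pfkfb1 and Pfkfb3 (1.40 and -4.24), Lpin2 and Lpin1 (4.52 and -0.87) and Pygl and Pygm (0.95 and -2.31) also took opposite directions. So did Fabp1 and Fabp4 (6.95 and -3.26), Scd1 and Scd2 (0.76 and -4.38) and Pck1 and Pck2 (0.52 and -1.88). Against adipose replicate 3 alone, Pfkfb1 differed by 0.25. The sign of Scd1 turned under quantile normalization with the slide as a block. Fabp1 is among the genes low on adipose replicate 2, with a difference of 12.29 against it.

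A few pairs did not divide by their brightest probes. Mogat2, listed as the liver type, was higher in adipose tissue by about as much as Mogat1. The synthetase Acsl4 was higher in liver together with its partner Acsl5, with 1.58 against 2.98. The difference was not called for Plin2 at 0.62 ± 0.287 (SE; limma adjusted p = 0.0698) beside Plin1. It was likewise not called for Acacb at 0.43 ± 0.314 (SE; limma adjusted p = 0.252), whose partner Acaca was at -1.12. Mat2a at 0.23 was not called beside Mat1a at 8.32, nor was Cpt1b at -0.20 beside Cpt1a. The calls of Acacb and Cpt1b depend on the probe. With every probe on its own, the other Acacb probe was called at 1.13 (limma adjusted p = 0.00229). The other Cpt1b probe was called at -1.71 (limma adjusted p = 0.00366), so that on these probes both pairs took opposite directions. In the arginase pair, Arg1 differed by 7.06 and Arg2 did not enter the test.

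**Figure D4:**
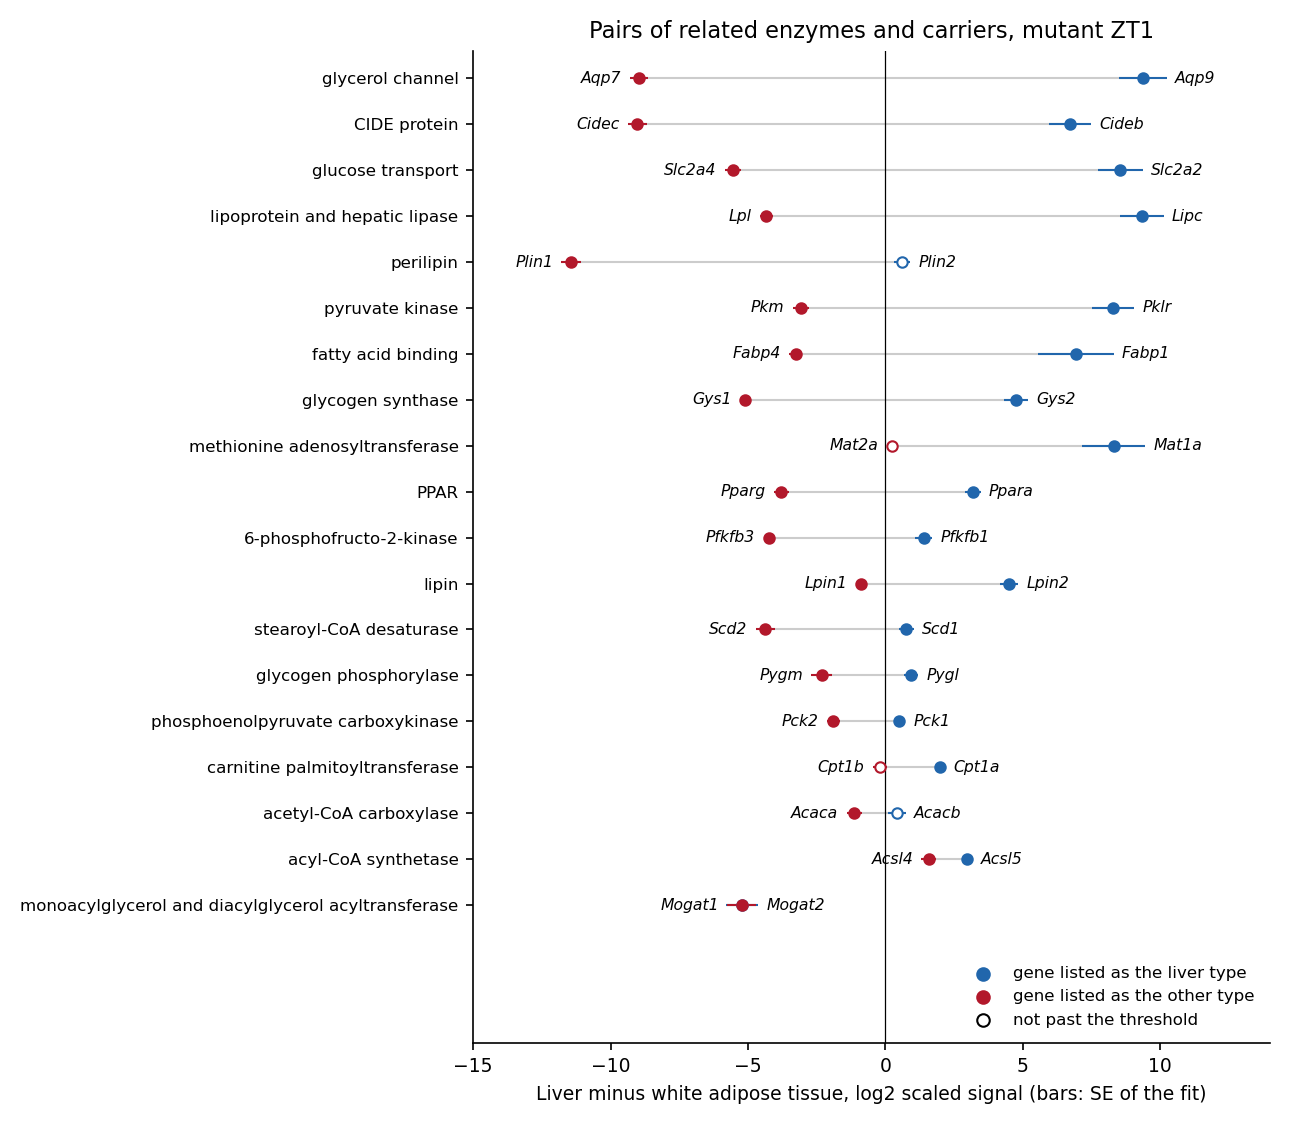
Liver minus adipose difference (log2 scaled signal, bars are the SE of the fit) of 19 pairs of related genes, with the gene listed as the liver type in blue and the other in red, and open symbols for genes not past the threshold. In 13 pairs the symbols lie on opposite sides of 0 and both are filled, and in the lowest pair, Mogat1 and Mogat2, they coincide.

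The core clock did not take the side of either tissue. Of 23 clock genes, 19 were tested, of which 7 were called higher in liver and 5 in adipose tissue, with a median of 0.20. With the 75th percentile taken over probes detected on all arrays, 5 were called in each direction, with a median of -0.08. Rora, an activator of the ROR family, was 3.93, 3.83 and 3.86 in liver and 1.59, 1.23 and 2.29 in adipose tissue. It differed by 2.17 ± 0.281 (SE; limma adjusted p = 1.48e-06), and Rorb was not called. The repressors Bhlhe40 and Nfil3 differed by 2.89 and 1.95, and the PAR bZIP factor Hlf by 1.24. The related output factors Dbp and Tef were not called, at -0.01 ± 0.269 (SE; limma adjusted p = 0.983) and 0.10 ± 0.191 (SE; limma adjusted p = 0.688). Dbp was 5.76, 5.61 and 5.61 in liver and 6.02, 6.03 and 4.96 in adipose tissue, which overlap. Arntl, the activator, was -1.83, -1.71 and -1.87 in liver and -1.84, -2.37 and -1.38 in adipose tissue, a difference of 0.06 ± 0.271 (SE; limma adjusted p = 0.862). Nr1d1, its repressor, was not called at 0.20. The probes of Nr1d2 disagreed and lie on different chromosomes in the files: the brighter, on chromosome 19, was not called at 0.45, and the other, on chromosome 14, was called at 2.42 (limma adjusted p = 0.000282).

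Per1 and Csnk1e were higher in adipose tissue, and Per2 was higher in liver. Per1 (brighter probe at chr11:68923364-68923423, mm9) was 0.33, -0.40 and 0.08 in liver and 1.84, 0.87 and 1.32 in adipose tissue, a difference of -1.34 ± 0.275 (SE; limma adjusted p = 0.000309). The other Per1 probe differed by -0.37 and was not called, and the files do not state whether either probe also reads human PER1. Per2 was -0.31, 0.38 and 0.38 in liver and -1.18, -0.73 and -0.14 in adipose tissue, values that overlap, with a difference of 0.83 ± 0.275 (SE; limma adjusted p = 0.0141) and 0.28 against replicate 3. Csnk1e, the kinase of PER proteins, differed by -2.09 ± 0.184 (SE; limma adjusted p = 8.04e-09). The probes of its relative Csnk1d disagreed. The brighter was not called at 0.23, and the other was called at -0.88 (limma adjusted p = 0.00703 with every probe on its own). Cry2 differed by -0.81 and Bhlhe41 by -1.15. For these the within-slide values were -0.34 and -0.34, both not called, with limma adjusted p of 0.407 and 0.524. Clock differed by -0.50 and the deubiquitinase Usp2 by 0.85. Npas2, Per3, Cry1 and Ciart were not well above background on 3 arrays of either tissue. Cry1 was below that mark on each of the 6 arrays, and Npas2 on each liver array.

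**Figure D5:**
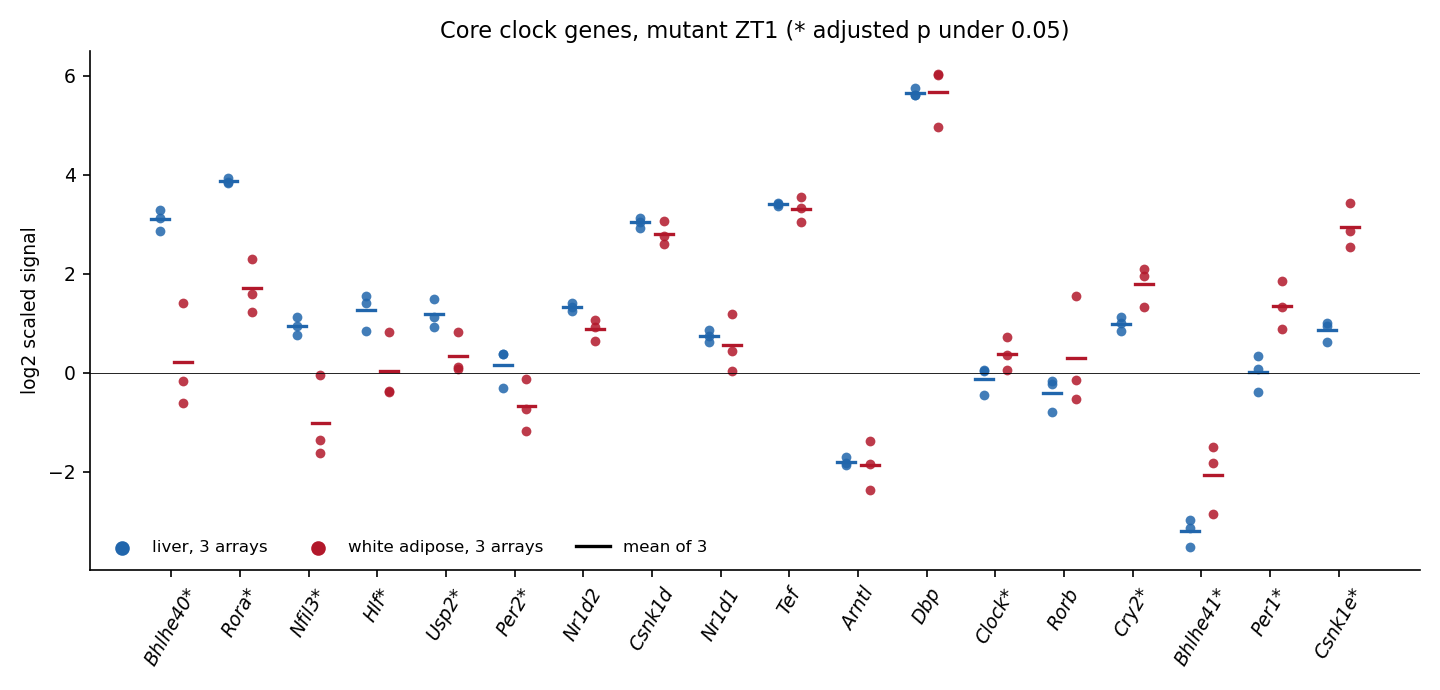
Log2 scaled signal of 18 clock genes on each of the 3 liver (blue) and 3 adipose (red) arrays of mutant ZT1, ordered by difference, with the mean of 3 as a bar and a star for an adjusted p under 0.05. Bhlhe40 lies at the left with liver values of 2.87 to 3.29 above adipose values of -0.62 to 1.42, and Csnk1e at the right with the reverse order.

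Genes used as references and for general cell functions differed less. Of 25 subunits of oxidative phosphorylation, 11 were called higher in liver and 1 in adipose tissue, with a median of 0.44. Under quantile normalization 8 were higher in liver and 3 in adipose tissue, with a median of -0.16. The adipose-side subunit was Cox8b, a muscle and brown fat isoform, at -6.63. Nuclear-encoded subunits such as Ndufa4 at 1.83, Atp5c1 at 1.37, Cox5a at 1.27, Ndufs1 at 1.21 and Uqcrc1 at 1.0 were higher in liver. Of 25 ribosomal proteins, 11 were called higher in liver and 0 in adipose tissue, with a median of 0.45, among them Rpl30 at 1.05, Rps6 at 1.05 and Rpl27 at 1.34. Under quantile normalization 1 was higher in liver and 7 in adipose tissue, with a median of -0.10. Of 15 reference genes, 7 were called higher in liver and 0 in adipose tissue (3 and 3 under quantile normalization), with Gapdh at 0.89 ± 0.217 (SE; limma adjusted p = 0.0016), Polr2a at 1.46, Pgk1 at 1.24, Sdha at 0.90 and B2m at 0.63. Hprt was 3.61, 3.58 and 3.55 in liver and 3.44, 3.48 and 3.39 in adipose tissue, and Tbp differed by 0.05. These small differences depend on the scaling. B2m, Rplp1 and Pck1 changed sign under quantile normalization, and Gapdh, Rpl30, Rpl27 and Rpl19 did so when the slide was also a block.

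Resident cells of each tissue were seen through their markers. Of 8 markers of the liver's sinusoidal endothelium, 7 were called higher in liver and 1, Lyve1, higher in adipose tissue. Oit3 was at least 106.7-fold and Gata4 at least 68.2-fold higher in liver, and Clec4g and Stab2 differed by 7.48 and 5.29. Of 8 Kupffer cell markers, 5 were called higher in liver and 1 in adipose tissue, with Clec4f at 6.78, Cd5l at 5.30 and Vsig4 at 5.19. Vsig4 was 2.58, 2.76 and 2.62 in liver and -2.58, -2.56 and -2.48 in adipose tissue. The mean level of sinusoidal markers on adipose replicates 1 to 3 was -1.69, -2.39 and -2.02, and that of Kupffer markers was -0.08, -0.32 and -0.70. For these cells of the liver, replicate 2 was the lowest for sinusoidal markers only, and by less than 1 log2 unit. Of 8 stellate cell markers, 5 were called higher in liver, with Lrat, which stores vitamin A, at 5.77 and Reln at least 31.8-fold. The pericyte marker Rgs5 at -1.43 and the muscle filament gene Des at -1.51 were called higher in adipose tissue.

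On the adipose side were stromal, vascular and immune cells. Of 12 markers of fibroblasts and adipose progenitors, 11 were called higher in adipose tissue and 1, Dpp4, higher in liver. Pi16 was 4.39, 3.98 and 3.29 in adipose tissue and -0.60, -0.79 and -1.20 in liver. Of 9 mesothelial markers tested, 8 were called higher in adipose tissue, among them Upk3b at -5.25 and Lrrn4 at -6.34, and the epithelial keratin Krt8, also made by hepatocytes, was higher in liver. Of 10 general endothelial markers, 8 were higher in adipose tissue, with Cldn5 at -2.94 and Vwf at -2.69. Smooth muscle markers were higher in adipose tissue in 6 of 6, with Acta2 at -4.48. Of 12 macrophage markers, 10 were higher in adipose tissue, with a median of -0.80 and Cd14 at -2.54. With the slide as a block, 5 were higher in adipose tissue and 1 in liver, with a median of -0.52. Of 6 mast cell markers tested of 8 listed, 4 were called higher in adipose tissue and 0 in liver. Mcpt4 was at least 83.9-fold and Cma1 at least 39.4-fold higher in adipose tissue. For 3 of the 6 the difference is a bound. Mcpt4 and Cma1 were well above background on no liver array and entered the test through adipose tissue only, so the filter favoured their direction. Brown fat markers took no single side. Of 8 tested, 3 were called higher in liver and 3 in adipose tissue, with a median of 0.04. Among them Cidea differed by -1.73 and Elovl3 was at least 79.7-fold higher in liver, while Ucp1 and Dio2 did not enter the test. Of the epididymis and testis markers, 1 of 10 and 1 of 9 on the array passed the filter, and neither was called.

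Most of the other lists had calls in both directions, whereas the B cell, erythroid and nerve lists had calls in 1 direction only. Cholangiocyte markers gave 3 higher in liver and 2 in adipose tissue of 7 tested, with Spp1 at 7.86 and Krt19 at -3.62. T and NK cell markers gave 1 and 4 of 8, B cell markers 2 and 0 of 6, neutrophil markers 2 and 3 of 6, and erythroid markers 1 and 0 of 4, the 1 being Alas2 at 1.84. Nerve and Schwann cell markers gave 0 and 5 of 6, skeletal muscle 1 and 3 of 5, pancreas 1 and 1 of 4, and mammary and skin epithelium 3 and 1 of 4. The Trp63 call in the last list rests on 1 of its probes, since another probe was called in the opposite direction. The same holds for Krt10 and Tnnt3. Among 5634 genes with at least 2 probes tested, 305 had probes called in opposite directions.

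The genes with the largest differences that were well above background on each of the 6 arrays were chosen by size, 10 in each direction. In liver they were Apon at 8.95, Hsd17b2 at 8.54, Cpn1 at 8.29, Cps1 at 8.26, Cpb2 at 8.25, Amdhd1 at 8.20, Lcat at 8.19, Hal at 8.09, C4bp at 8.02 and Bhmt at 8.0. Apon encodes an apolipoprotein, Cpn1 and Cpb2 are plasma carboxypeptidases, C4bp is a complement regulator, Hal and Amdhd1 break down histidine, and Bhmt remethylates homocysteine. Apon was 6.14, 6.16 and 6.03 in liver and -2.26, -4.93 and -1.35 in adipose tissue. In adipose tissue they were Slc1a5 at -8.20, Adig at -7.76, Prkar2b at -7.43, Cfd at -7.26, Retn at -7.12, Cd209d at -6.82, Glb1l2 at -6.78, Npr3 at -6.70, Adipoq at -6.54 and Tppp3 at -6.36. Slc1a5, a glutamine carrier, was -2.37, -2.86 and -1.96 in liver and 6.48, 5.70 and 5.22 in adipose tissue. Adipsin (Cfd), a complement protease of fat, was 6.10, 6.03 and 5.80 in adipose tissue but spread from -2.81 to 0.55 in liver. Prkar2b is a regulatory subunit of the kinase that carries the lipolytic signal of cAMP.

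The tissue difference was next compared between genotypes at ZT1. The test asks for which genes liver minus adipose differed between the mutant and the control. It shares the 6 mutant arrays with the values above. Of 21842 genes tested, 408 (1.87%) were called by limma, 187 in the direction of a larger liver-side difference in the mutant and 221 in the other, and 5483 had an unadjusted p under 0.05. Clock genes called included Per1 and Usp2. For Per1 the difference was -1.34 in the mutant and -3.20 in the control, a change of 1.86 (limma adjusted p = 0.0247), where Per1 in control liver averaged -3.33 ± 0.0743 (SD, n = 3), with 2 of 3 arrays well above background. For Usp2 it was 0.85 in the mutant and -2.09 in the control, a change of 2.95 (limma adjusted p = 0.00395). Usp2 thus changed sides between the genotypes.

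Other genes with large genotype changes were mostly dim in 1 tissue. Loxl4, of the lysyl oxidase family, was the clearest of the 10 named. It was -2.26, -2.55 and -2.60 in mutant liver and 1.72, 0.50 and 0.78 in control liver, and -0.98, -0.93 and -0.92 in mutant and -2.12, -1.93 and -2.10 in control adipose tissue. Liver was thus the lower tissue in the mutant and the higher one in the control, and the change of -4.58 ± 0.361 (SE) had a limma adjusted p of 1.62e-06, and of 9.79e-05 with the slide as a block. The fructose carrier Slc2a5 was 1.73, 2.09 and 1.99 in mutant liver and -3.11, -2.72 and -1.93 in mutant adipose tissue, where control arrays of both tissues lay between -0.81 and 0.76. Its change was 4.27 (limma adjusted p = 0.0311), and the adjusted p was 0.34 with the slide as a block.

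The genotype counts rest on single arrays. Control arrays at ZT1 lay on slide 1 and mutant liver arrays on slide 2, and with the slide as a block 75 genes were called. Leaving out 1 array at a time gave 267, 98 and 77 genes without liver mutant replicates 1, 2 and 3, and 144, 145 and 7086 without adipose mutant replicates 1, 2 and 3. It gave 203, 1027 and 182 without liver control replicates 1, 2 and 3, and 150, 132 and 1191 without adipose control replicates 1, 2 and 3. Hepatocyte marker levels on the adipose arrays, given above, moved with these groups too, and their part in the count was not tested.

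The tissue difference was then compared between times in the mutant. Of 24090 genes tested, 300 (1.25%) were called by limma, 80 with a larger liver-side difference at ZT1 and 220 with a larger one at ZT13, and 4916 had an unadjusted p under 0.05. The ZT13 arrays of the mutant lay on slide 3, and with the slide as a block 36 genes were called. Nr1d1 was 0.20 higher in liver at ZT1 and 2.47 at ZT13, a change of -2.27 (limma adjusted p = 0.00731). Its mean was 0.55 ± 0.584 at ZT1 and -2.36 ± 0.123 at ZT13 in adipose tissue (SD, n = 3), and 0.75 ± 0.126 and 0.11 ± 0.237 in liver. Usp2 went from 0.85 at ZT1 to -1.50 at ZT13, a change of 2.35 (limma adjusted p = 0.0161). Per3, bright enough at ZT13 in adipose tissue only, changed by 3.20 (limma adjusted p = 0.0252), with ZT13 levels of -3.70, -3.99 and -3.65 in adipose tissue and no liver array well above background. For Arntl the tissue difference was 0.06 at ZT1 and 0.37 at ZT13. Its mean level at ZT1 and ZT13 was -1.80 and 1.57 in liver and -1.86 and 1.19 in adipose tissue, a time difference within each tissue that was not tested here.

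Leaving out arrays moved the time count as well. It was 126, 108 and 113 without liver mutant ZT1 replicates 1, 2 and 3, and 119, 154 and 6570 without adipose mutant ZT1 replicates 1, 2 and 3. It was 119, 87 and 115 without liver mutant ZT13 replicates 1, 2 and 3, and 89, 133 and 110 without adipose mutant ZT13 replicates 1, 2 and 3. Among the genes called were 4 of 12 macrophage markers and 2 of 8 Kupffer cell markers, and whether cell makeup moved with these calls was not tested. Loxl4 changed by -3.76 ± 0.364 (SE; limma adjusted p = 6.39e-05) and by -3.79 with the slide as a block, with liver levels of 0.35, 0.49 and 0.22 at ZT13. The eosinophil chemokine receptor Ccr3 was -1.90, -1.13 and -2.12 on the adipose arrays at ZT1 and not well above background on any at ZT13, a change of -4.51 (limma adjusted p = 0.0034).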

How the data were processed

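Total RNA of 24 samples in 8 groups of 3 was measured on 1-colour Agilent arrays lying on 3 slides. Per the file headers, the deposited intensity values (processed signal) come from Agilent Feature Extraction 10.7.3.1, which subtracted background and did not scale arrays to each other. Per the file headers, probe positions are on mm9 and flags give spots well above background. A deposited table of log2 values matched log2 of the processed signal less a constant per array, and was used as an alternative.

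Control spots and outlier flags were left out. Log2 signals were scaled by each array's 75th percentile, spots of a probe were averaged, and each gene was read by its brightest probe over the 24 arrays. A gene was tested if well above background on 3 of 3 arrays of a compared group. Group means over 24 arrays were fitted with limma 3.58.1 (R 4.3.3), and contrasts called at a Benjamini-Hochberg adjusted p under 0.05. The tests were run on simulated data first. Symbols came from RefSeq accessions for 26762 probes, current symbols for 3819, synonyms for 639 and the array's own name for 24461. Exons and UTRs are not given, since no annotation of that build was used here. The number of arrays limits the precision.

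Members, gene lists and the promoter motif were chosen with earlier results of these data known. Named genes were all clock genes, the 10 largest non-overlapping differences per direction, up to 6 members of lowest p per list, all paralogue pairs, and 5 genes per direction in each interaction. Replicate numbers were not used to pair the samples in the main fit, since the labels do not state shared animals. Deviations of same-numbered mutant ZT1 samples correlated at 0.011, -0.033 and 0.048 across genes. Such values between different tissues cannot show whether animals were shared. Alternatives changed scaling, background correction, filter, probe choice, slide, array weights and single arrays. Results on some items are not reported here.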

Additional observations from a re-analysis of the deposited data

Results flagged for a closer look

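The genes below were singled out because a test of the difference itself found the tissue difference to change with genotype or time. They are the 5 of largest change per direction. Several have a group that is not well above background, where the fitted value is no bound.

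Between mutant and control at ZT1, the tissue difference changed by 4.76 for Hsbp1l1, 4.70 for Tm4sf4, 4.27 for Slc2a5, 4.19 for Sult1c2 and 3.47 for Gnat1. It changed by -4.97 for Prkg2, -4.81 for Camsap2, -4.58 for Loxl4, -4.08 for Olfr1535 and -4.03 for Chrm5. The limma adjusted p ran from 1.62e-06 (Loxl4) to 0.0423 (Camsap2). With the slide as a block, Loxl4 and Gnat1 stayed under 0.05, Gnat1 at an adjusted p of 0.0377, and the other 8 did not. Sult1c2 differed between the tissues by 8.03 in the mutant and 3.84 in the control, and Tm4sf4 by 9.46 and 4.75.

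Between ZT1 and ZT13 in the mutant, the tissue difference changed by 3.97 for Tectb, 3.96 for Gdap10, 3.33 for Gstt4, 3.20 for Per3 and 3.12 for Syt12. It changed by -4.98 for Bhlha15, -4.51 for Ccr3, -3.76 for Loxl4, -3.67 for Tmem171 and -3.49 for Meig1. The limma adjusted p ran from 6.39e-05 (Loxl4) to 0.0408 (Syt12). With the slide as a block, Loxl4 and Ccr3 stayed under 0.05, Ccr3 at an adjusted p of 0.0289, and the other 8 did not. For Gdap10, 1 liver array had no value.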

How the results depend on the processing

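The count of 12249 genes differing between the tissues stayed within 1.5 times under 23 of 24 alternatives and was 4911 against a 2-fold floor. With only the 6 arrays in the fit it was 9041. Leaving out 1 array gave 11033 to 13463 genes. The median difference of 0.017 became -0.254 with the percentile over detected probes and 0.208 with the slide as a fixed block or against adipose replicate 3 alone. The genotype count of 408 became 860 with normexp, 90 with no filter, 263 with the strict filter, 636 with every probe on its own, 7269 with array weights, 75 and 98 with the slide as a fixed or random block, and 77 to 7086 without 1 array. The time count of 300 became 95 with no filter, 10576 with array weights, 36 and 90 with the slide as a fixed or random block, and 87 to 6570 without 1 array. With the replicate block the counts were 11497, 146 and 41, although the numbers share no known animal. Quantile normalization with the slide as a block, chosen after seeing the data like the values against adipose replicate 2 alone, gave 8847, 76 and 46. Of 247 named genes called, 237 kept their sign and 194 also their call in the 23 other settings run. Signs turned under quantile normalization for B2m (-0.019), Pck1 (-0.066) and Rplp1 (-0.011). With the slide block added they turned for B2m (-0.44), Gapdh (-0.12), Hmgcs1 (-0.21), Pck1 (-0.0873), Rpl19 (-0.41), Rpl27 (-0.19), Rpl30 (-0.031), Rplp1 (-0.48) and Scd1 (-0.20). Against adipose replicate 1 alone Tnnt3 was at -0.17. The cause was not tested. Signal near background limits the size of 1097 differences to a bound.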
